A study of Homo sapiens with 24 samples.

Results

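MV3 is a cell line from an amelanotic melanoma, a tumour of melanocytes that makes no visible pigment. Its RNA was described here in the control state, in the 3 libraries from cells given a control siRNA (MV3 siC). They were set against the 9 control libraries of A549 (lung carcinoma), ES2 (ovarian clear cell carcinoma) and PANC1 (pancreatic ductal carcinoma), so 12 of the 24 libraries of the series were used. The other 12 libraries carried siRNAs against IGF2BP1 (siI1), an oncofetal RNA-binding protein, and enter below only as a repeat of the line comparison.

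All cells grew in DMEM with 10% FBS, and the control siRNA was a C. elegans miRNA sequence (CEL-miR-239b). Cells were harvested 72 h after transfection for MV3, A549 and ES2 and 96 h after transfection for PANC1. Total RNA was depleted of rRNA and sequenced as strand-specific libraries. Each group is 1 line in 1 deposited table, with 3 libraries that no label ties to separate cultures, so p-values measure only the spread between these libraries. A difference between MV3 and another line therefore compares lines and not tumour types, and line, table and library batch cannot be told apart.

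Melanocytes arise from the neural crest, and their pigment programme is driven by the transcription factors MITF and SOX10, which act on PMEL, MLANA, TYR, TYRP1 and DCT. Melanoma cells can lose this programme and take on an undifferentiated state, which is known for low MITF and high AXL and WNT5A. A549, ES2 and PANC1 come from epithelial tumours, whose usual markers are keratins and cell-cell junction proteins.

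Levels are given as rescaled FPKM, that is reads scaled to gene length and library size, brought to 1 scale over the 4 tables by the median ratio of 9353 protein-coding genes. Of the 19799 protein-coding genes listed, 11985 had a mean of at least 0.5 over the 12 libraries and were tested with limma on log2(rescaled FPKM + 0.5). A gene expressed in a single line can pass this filter, and list medians below cover tested members only. Differences below are on that log2 scale, which understates the change of low genes. A gene was called higher or lower in MV3 only when its difference from each of the 3 other lines had a Benjamini-Hochberg adjusted p below 0.05 and the same sign. For a called gene the difference to the nearest line is printed with its standard error, and the adjusted p is the largest of the 3. For 12 called genes named below (CDKN2B, DDR2, ETV5, FGF5, FGFR4, HLA-C, HRAS, IGF2BP3, MAP2K2, PHLPP1, SOS1 and WT1) leaving out 1 library ended the call, so these are weak calls. MV3 had the deepest libraries, with 15572492 to 16077195 reads assigned to genes, against 3987122 to 4406817 in A549, 6421764 to 7253729 in ES2 and 6723908 to 8472851 in PANC1. Each MV3 control library held 11616 to 11701 protein-coding genes with at least 10 reads, against 11342 to 11662 in the other lines.

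IGF2BP1, the gene targeted in the series, was at 8.6, 9.16 and 8.7 in the MV3 control libraries. Control levels were 37.6, 37.8 and 37.8 in A549, 12.8, 13.6 and 11.8 in ES2 and 12.6, 12.4 and 12.3 in PANC1. MV3 thus had the lowest level of the 4 lines, below every other control library, with a difference of -0.47 ± 0.06 to PANC1 (limma adjusted p = 5.9e-06). In the deposited scale within the MV3 table, IGF2BP1 was 9.06 to 9.64 in the siC libraries and 2.77 to 3.02 in the siI1 libraries, so the labels of the MV3 arms matched the targeted gene.

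Set against all 3 lines, 1568 protein-coding genes were higher in MV3 (13.1% of those tested) and 1673 were lower (14%). Most of these differences were small: 1344 of the higher and 1324 of the lower genes lay less than 1 log2 unit from the nearest line, while 224 higher and 349 lower genes lay at least 1 unit away. With TMM scaling of the recovered reads the split was 2003 higher and 1367 lower genes, so that 59.4% of the called genes were higher in place of 48.4%, and the balance of the directions depends on the scale. TMM scaling moved the median difference of all tested genes to A549 from -0.07 to 0.08, and no rescaling moved that to PANC1 from -0.02 to 0.16. List counts below that another scaling moved by more than 1 member, or whose order of higher and lower it turned, are given with their range. The other list counts moved by at most 1. Taken singly, 69.6% of the tested genes differed between MV3 and ES2, 76.3% between MV3 and A549 and 77.0% between MV3 and PANC1. ES2 was the line closest to MV3: 2246 genes differed from ES2 by at least 1 log2 unit and passed the test, against 3368 for A549 and 3445 for PANC1. Over the 11985 tested genes the mean levels of MV3 had a Spearman correlation of 0.87 with those of ES2, 0.75 with A549 and 0.77 with PANC1, which describes genes within these libraries and not replicates.

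The melanocyte programme was the first check of the label. SOX10, TYR and DCT had 0 reads in all 12 control libraries, and TYRP1 had 0 reads in MV3. MLANA and PMEL each had 1 read over the 3 MV3 libraries. These pigment genes were therefore not detected in MV3 at a depth where 1 read in a gene of 1 kb was worth 0.0645 FPKM, and MV3 could not be told from the epithelial lines by them. MITF, the master factor of the lineage, was at 0.28, 0.321 and 0.312 in MV3, 2.9, 2.79 and 3.12 in A549, 1.48, 1.42 and 1.48 in ES2 and 7.32, 7.86 and 8.21 in PANC1. MV3 had less MITF mRNA than any other control library (-1.29 ± 0.08 to ES2, limma adjusted p = 1.7e-08).

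Of 23 listed melanocyte and pigment genes, 10 were tested, of which 3 were higher and 2 lower in MV3, beside 13.1% and 14% of all tested genes. The median difference of these 10 from the mean of the other lines was 1.27, against -0.05 for all tested protein-coding genes. Of the 23 listed, 13 were below 1 FPKM in every line and 12 had at most 3 reads in MV3. The median therefore does not describe the list as a whole. GPR143, a receptor of the melanosome membrane, was at 20.5, 19.6 and 19.6 in MV3, 11, 11 and 9.98 in ES2 and at most 0.192 in A549 and PANC1 (0.87 ± 0.08 to ES2, adjusted p = 6.2e-07). MC1R, the melanocortin receptor, reached 12 ± 0.6 (SD, n = 3) in MV3 and 7.55 ± 0.53 in ES2, with a difference of 0.64 ± 0.11. GPNMB, a melanosome glycoprotein, was higher at 1.9 ± 0.275 but low in each line. PAX3, a factor of neural crest and melanocyte precursors, was at 5.62, 5.55 and 5.17 in MV3 and 5.05, 4.79 and 4.95 in ES2, and at most 0.0557 in A549 and PANC1. It was thus a gene that MV3 shared with ES2, from which it did not differ by the test (0.13 ± 0.09, adjusted p = 0.21). BCL2A1, an anti-apoptotic member of the BCL2 family that MITF is known to activate, had 0 reads in MV3 and means of 7.9 in A549, 2.99 in ES2 and 4.08 in PANC1, at least 17.7-fold lower in MV3 when 3 reads per library are taken as the floor.

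**Figure D1:**
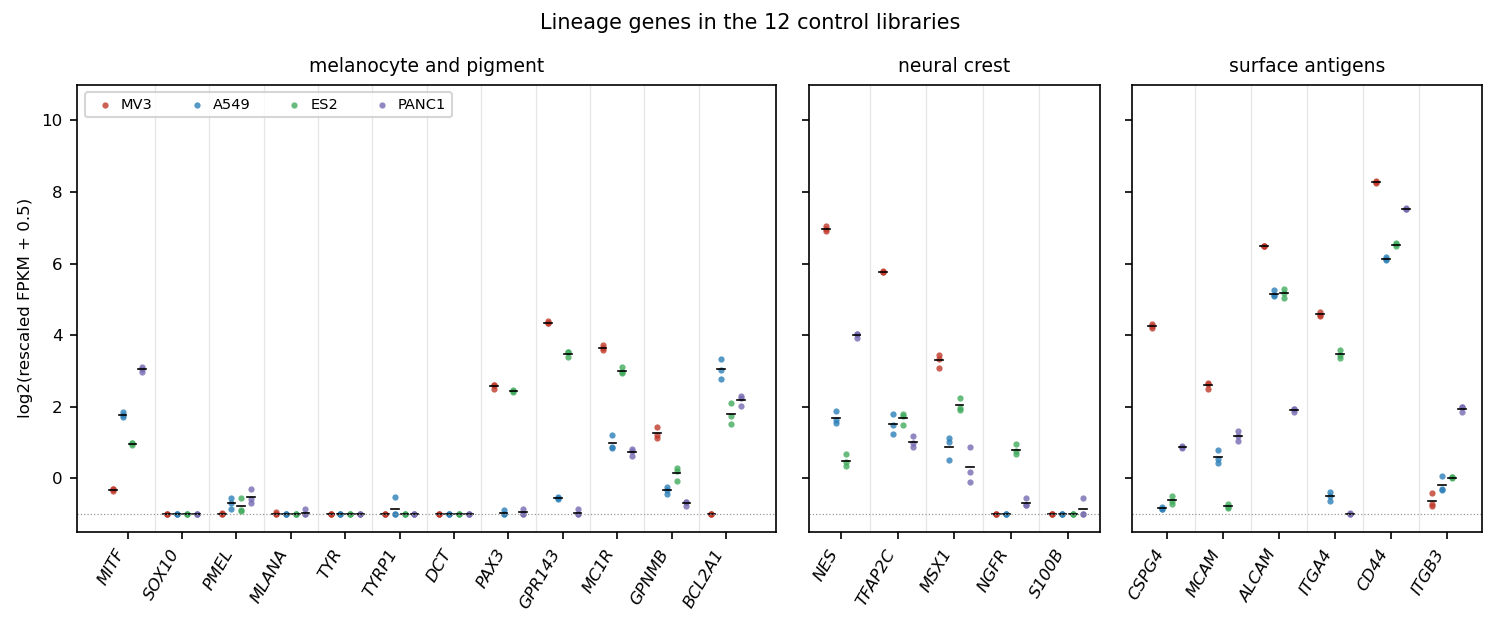
Control libraries of the 4 lines for melanocyte, neural crest and surface genes, each dot 1 library and each bar the mean of 3 on the log2(rescaled FPKM + 0.5) axis, where the dotted line at the bottom marks 0 FPKM. The pigment genes SOX10 to DCT lie on or near that line in all lines, MITF is lowest in MV3, and NES, TFAP2C and CSPG4 stand above the other lines in MV3.

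The pigment genes are shown by the element through which MITF is known to act, the M-box, spelled TCATGTG on one strand and CACATGA on the other. It is given here because genes that carry it were called in both directions in MV3. The windows come from RefSeq promoters of 250 bases before to 50 after each start site (GRCh38.p14), written on the gene's strand, with the motif in capitals.
TYR, chr11:89177752-89177794, plus strand: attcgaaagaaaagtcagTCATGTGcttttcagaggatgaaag
TYRP1, chr9:12693222-12693264, plus strand: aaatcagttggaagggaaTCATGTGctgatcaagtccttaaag
DCT, chr13:94479793-94479835, minus strand: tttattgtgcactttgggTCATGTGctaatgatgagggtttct
BCL2A1, chr15:79971198-79971240, minus strand: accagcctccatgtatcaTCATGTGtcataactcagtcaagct
GPR143, chrX:9765884-9765926, minus strand: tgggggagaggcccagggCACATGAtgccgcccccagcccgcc
GPNMB, chr7:23246634-23246676, plus strand: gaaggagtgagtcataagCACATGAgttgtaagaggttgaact

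The motif was found in the promoters of 7 of the 19 listed pigment genes with a RefSeq promoter, the seventh being SLC24A5, and in those of 3.59% of all 27305 genes with one. Counted by promoter, it was in 21.9% of the 32 promoters of the list and in 2.92% of all 35116. In TYR, TYRP1 and BCL2A1 it began 105, 145 and 26 bases before the start site. Of these genes TYR, TYRP1, DCT and BCL2A1 had no read in MV3, while GPR143 and GPNMB were higher in MV3 than in each other line. Only BCL2A1 was called lower. TYR and DCT had no read in any control library, so MV3 did not differ from the other lines by them. A match of these letters is a description of the window and not a measured binding site.

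Neural crest genes fell into a few high members and many silent ones. Of 27 listed, 10 were tested, 3 were higher and 0 were lower in MV3, beside 13.1% and 14% of all tested genes. The median difference of the tested members was 0.24. Of the 27 listed, 16 were below 1 FPKM in every line and 13 had at most 3 reads in MV3, so many were silent in the other lines too. NES (nestin, an intermediate filament of neural crest and neural progenitors) was at 125, 131 and 119.5 in MV3, 14.6, 16 and 15.8 in PANC1 and at most 3.21 in A549 and ES2, a difference of 2.98 ± 0.10 to the nearest line (adjusted p = 1.9e-11). TFAP2C, an AP-2 transcription factor, was at 55.2, 53.4 and 53.7 in MV3 and below 3.1 in all 9 other control libraries (4.08 ± 0.13). MSX1, a homeobox factor of the neural crest, was also higher (1.25 ± 0.23). NGFR and S100B, which mark neural crest-like melanoma cells and Schwann or melanocytic cells, had 0 reads in MV3. SOX9 at 11.6 and TFAP2A at 2.11 lay between other lines.

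Of the 13 tested melanoma surface antigens, 5 were higher and 1 was lower. CSPG4, the chondroitin sulphate proteoglycan long used as a melanoma antigen, was at 19.5, 18.5 and 17.8 in MV3, 1.37, 1.34 and 1.3 in PANC1 and at most 0.214 in A549 and ES2. It was thus the surface antigen with the widest gap, 3.38 ± 0.09 (adjusted p = 1.8e-12). MCAM, an adhesion molecule of melanoma and endothelium, was higher by 1.41 ± 0.11 than in PANC1, ALCAM by 1.32 ± 0.07 than in ES2 and the integrin subunit ITGA4 by 1.12 ± 0.09 than in ES2. CD44, the hyaluronan receptor, was abundant at 309.7 ± 3.79, against 70.0 in A549, 91.8 in ES2 and 185 in PANC1. ITGB3, the integrin subunit of invasive melanoma, was lower in MV3 at 0.148, with a difference of -0.45 ± 0.13 to A549. It was also low in A549 at 0.386 and ES2 at 0.516, and reached 3.37 in PANC1. The median of this list was -0.08 and moved to 0.76 with common-sum scaling, under which 12 members were tested, so no direction is given for the list as a whole.

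Genes of the undifferentiated melanoma state gave a mixed picture. Of 19 tested, 2 were higher and 3 lower, shares close to the background, and under the other scalings 2 to 3 were higher and 2 to 3 lower. WNT5A, a non-canonical WNT ligand, was at 9.55, 9.17 and 9.19 in MV3 and at most 0.729 in every other control library (3.22 ± 0.14, adjusted p = 6.5e-10). AXL, a receptor tyrosine kinase, was at 269, 265 and 259.9 in MV3 and 257, 276 and 273 in ES2, so that these groups overlapped (difference -0.02 ± 0.05, adjusted p = 0.72), and at 64, 61.9 and 63.8 in A549 and 76.6, 74.1 and 73.5 in PANC1. LOXL2, a collagen cross-linking enzyme, was higher by 0.38 ± 0.06. NRG1, an ERBB3 ligand, and F2RL1, a protease-activated receptor, were lower, with differences of -1.20 and -0.23 to the nearest line. GAS6, the ligand of AXL, was at 27, 26.9 and 26.1 in MV3 and at most 6.34 elsewhere, a difference of 2.05 ± 0.08.

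Epithelial genes were low in MV3 by their median, while few were lower than in all 3 lines. Of 18 tested, 0 were higher and 4 were lower (22.2%, against 14% of all genes), with a median difference of -2.09 from the mean of the other lines. KRT8, a keratin of simple epithelia, was at 2.86, 2.97 and 2.84 in MV3, 8.57, 9.26 and 8.49 in ES2, 506, 460.5 and 492 in A549 and 809, 869 and 714 in PANC1 (-1.45 ± 0.07, adjusted p = 1.3e-09). KRT18, KRT7 and the tight junction protein OCLN were lower, with differences of -1.21, -1.43 and -0.76. CDH1 (E-cadherin), EPCAM and KRT19 had 1, 4 and 3 reads over the MV3 libraries, and 0 reads in ES2. MV3 and ES2 were thus both at or near 0 for these 3 genes, which were expressed in A549 and PANC1. KRT14, a keratin of basal squamous epithelium, was the exception with 2.95, 3.7 and 2.66 in MV3 and at most 0.0683 elsewhere, while its partner KRT5 had 3 reads over the MV3 libraries.

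Mesenchymal genes went the other way, with 7 of 17 tested higher (41.2%, against 13.1% of all genes) and 2 lower, and a median difference of 1.78. That median is taken against a mean that includes A549 and PANC1. Summed levels of the list were 1299 in MV3, 1225 in ES2, 838.7 in PANC1 and 534.2 in A549, so by this sum MV3 was close to ES2. POSTN (periostin), a matrix protein, was at 18.1, 16.9 and 18.2 in MV3 and had 0 reads in A549 and ES2 and 2 reads in PANC1. SNAI2, a repressor of epithelial genes and a neural crest factor, was at 28.6, 27.5 and 23.2 in MV3, at most 4.21 in A549 and ES2 and at 0 reads in PANC1 (2.86 ± 0.18). The matrix glycoprotein SPARC was at 176 ± 5.95 in MV3 against 74.2 ± 6.47 in ES2, and fibronectin (FN1) was higher by 0.57 ± 0.06 than in A549. FAP, TWIST2 and ZEB1 were higher by 1.87, 0.58 and 0.31 to the nearest line. VIM (vimentin) was abundant in MV3 at 881 ± 46 and higher still in ES2 at 1050 ± 19.9.

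CDH2 (N-cadherin), the adhesion molecule usually held to mark mesenchymal cells, moved against its list. Its levels were 0, 0.0245 and 0 in MV3, with 2 reads in all, and 37.2, 40.5 and 39.2 in A549, 26.7, 27.1 and 22.2 in ES2 and 15.3, 16.5 and 16.6 in PANC1 (-5.03 ± 0.08, adjusted p = 3.7e-14). The groups did not overlap, and MV3 had almost no message of the classical cadherins CDH1 and CDH2. Other classical cadherins are not described here. The neighbouring desmosomal cadherin on chromosome 18, DSG2, was also lower, with 0 reads in MV3 and means of 29.2 in A549, 1.3 in ES2 and 1.72 in PANC1. THY1, a surface glycoprotein of fibroblasts, was the other lower member, at 0.00353.

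CDH2 was 1 of 12 protein-coding genes that were at 0.1 FPKM or less in every MV3 control library and at 5 or more in each of the 9 others. By the same rule 1 gene was off in A549 alone, 5 in ES2 alone and 2 in PANC1 alone, without a test and with depths that differ between the lines. The 12 were CDH2, MYH10, CENPV, TM4SF18, SORT1, ME1, KLHL4, CERS6, FOXF2, GOLGA8A, GOLGA8B and HIST1H4L. MYH10, the non-muscle myosin IIB heavy chain, was at 0, 0.0135 and 0 in MV3 and had means of 24 in A549, 14.6 in ES2 and 9.54 in PANC1. SORT1 (sortilin), a sorting receptor, was at 0.0412, 0.0397 and 0.0265 in MV3 and had means of 11.8 in A549, 11.1 in ES2 and 8.74 in PANC1. ME1, the cytosolic malic enzyme that makes NADPH, was at 0, 0.018 and 0.018 in MV3 and had means of 16.8 in A549, 8.41 in ES2 and 12.2 in PANC1. CERS6, a ceramide synthase, had 1 read over the MV3 libraries and means of 6.92 in A549, 10.9 in ES2 and 11.7 in PANC1. FOXF2, a forkhead factor of mesenchyme, had 0 reads in MV3 and means of 5.64 in A549, 7.84 in ES2 and 5.34 in PANC1, at least 63.4-fold lower, while its paralogue FOXF1 was on in MV3 at 5.83, 5.68 and 6.17 and at most 0.216 elsewhere.

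For 6 of these 12 genes both flanking tested genes had at least 1 FPKM in MV3. SORT1, for example, lay between PSRC1 at 20.1 and PSMA5 at 21.3 in MV3. GOLGA8A and GOLGA8B are near-identical neighbours, and histone genes are near-identical copies, so reads may be split or lost between copies and their values are uncertain. HIST1H4L and HIST1H3I were at most 0.0492 in MV3 as means, beside HIST1H3J next to them at 358 in MV3 and 0.127 in ES2.

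In the other direction 5 genes were at 5 FPKM or more in every MV3 library and at 0.1 or less in all others, namely POSTN, KISS1, MAGEA1, CT55 and CT45A10. That rule gave 37 genes on in A549 alone, 14 in ES2 alone and 12 in PANC1 alone, so MV3 had the fewest, again without a test. KISS1, which encodes the kisspeptin precursor and was named as a metastasis suppressor of melanoma, was at 24.6, 25.2 and 20.6 in MV3 with 813 reads and had 0 reads in the other lines, at least 24.2-fold higher. MAGEA1, a cancer-testis antigen first known from melanoma, was at 11.8, 10.8 and 11.3 with 942 reads and 0 elsewhere, at least 28.0-fold higher. By the distance to the nearest line, BST2 (tetherin), an interferon-inducible protein that holds virions at the cell surface, led all genes not on chromosome Y. It was at 122, 118 and 117 in MV3, 1.66, 0.853 and 1.75 in A549, 1.53, 0.346 and 1.19 in PANC1 and 0 reads in ES2 (6.0 ± 0.27, adjusted p = 3.3e-10). The matrix protein EMILIN1 at 26.8, the urea transporter SLC14A1 at 9.61, the WNT inhibitor-like APCDD1L at 15.3 and the heparan sulphate sulphotransferase HS3ST3A1 at 12.3 were at most 0.511 in any other control library.

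**Figure D2:**
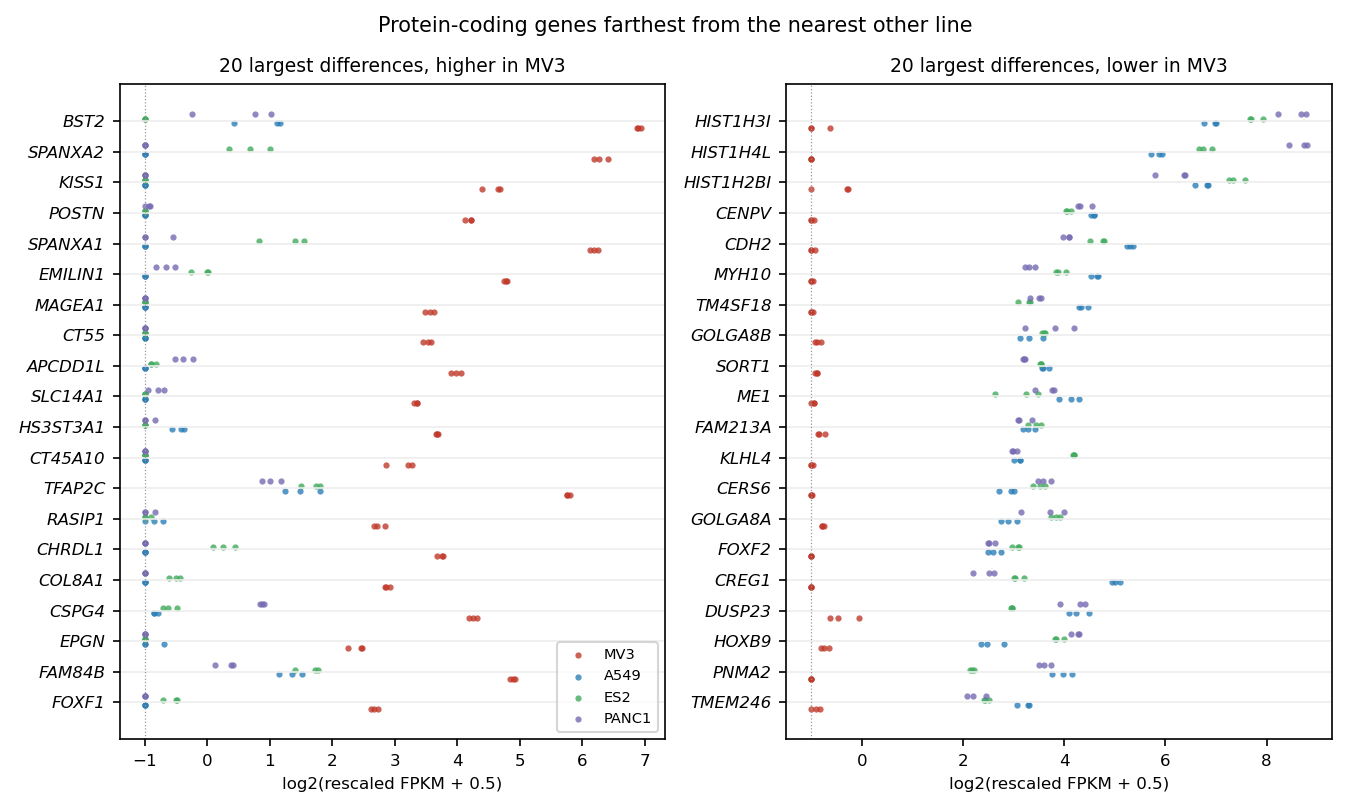
The 20 protein-coding genes with the largest difference to the nearest other line in each direction, each dot 1 control library on the log2(rescaled FPKM + 0.5) axis, where the dotted line marks 0 FPKM. MV3 stands apart from all 9 other libraries for each gene shown, from 0 in MV3 for HIST1H4L to 117 or more for BST2.

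Of 49 listed cancer-testis antigens, 19 were tested, 4 were higher and 0 were lower, and 29 had at most 3 reads in MV3. Besides MAGEA1, MAGEA6 was at 33.5 ± 1.92 in MV3 and 13.8 ± 1.2 in ES2, MAGEA10 at 31.7 ± 1.4 and 20.5 ± 0.994, and SPANXD at 29.7 ± 1.58 and 6.94 ± 3.51, with at most 0.0931 in A549 or PANC1. MAGEA3, in contrast, was higher in ES2 (64.1) than in MV3 (10.6), and PRAME was at 12 in MV3 and 12.5 to 18.1 in the other lines. MAGEA and SPANX genes have near-identical copies, and their single levels are uncertain for that reason.

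Few lineage factors of other tissues were found in MV3, and 12 of the 24 listed were below 1 FPKM in every line. Of 10 tested, 0 were higher (against 13.1% of all genes) and 3 were lower (30%, against 14%). The endoderm factors FOXA2 and FOXA1 had 0 reads in MV3 and means of 3.6 in A549, 1.24 in ES2 and 4.49 in PANC1 and of 0.726 in A549, 0.387 in ES2 and 1.24 in PANC1. WT1 had 0 reads as well, with means of 0.923 in A549, 0.117 in ES2 and 2.2 in PANC1. Of 12 listed leukocyte genes 1 was tested and 0 were called, PTPRC and CD3E were at most 0.00751 in any MV3 library, and the summed level of the list was 0.179 to 0.448 in MV3, 2.77 to 3.73 in A549, 0.405 to 0.714 in ES2 and 0.953 to 2.08 in PANC1. Of 9 listed endothelial genes 2 were tested and 1, the junction molecule ESAM, was higher, at 1.23 ± 0.049 in MV3 and 0.68 ± 0.202 in ES2 (0.57 ± 0.15, adjusted p = 0.0042). The defining endothelial markers PECAM1, VWF and CDH5 were at most 0.204 in any MV3 library, and the summed level was 1.41 to 1.54 in MV3, 0.357 to 0.492 in A549, 9.16 to 12.1 in ES2 and 0.226 to 0.551 in PANC1.

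Among the HOX genes, which set position along the body axis, 9 of 29 tested were lower (31.0%, against 14% of all genes) and 1 was higher. Of the lower genes, 5 belong to the HOXB cluster. HOXB9 was at 0.0974, 0.0705 and 0.141 in MV3, 6.56, 5.09 and 4.64 in A549, 13.6, 15.5 and 13.8 in ES2 and 18.8, 17.1 and 19.2 in PANC1 (-3.29 ± 0.11, adjusted p = 2.0e-11). HOXB8, HOXB3 and HOXC13 were also lower, with differences of -1.71, -1.18 and -0.92. HOXD13, the last gene of the HOXD cluster, was the higher one at 4.46, 4.44 and 4.1 in MV3 and 1.9, 1.06 and 1.08 in ES2.

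The oncofetal genes around IGF2BP1 did not share its low level. Both paralogues were higher in MV3, IGF2BP2 at 35.5 ± 1.25 by 0.32 ± 0.07 to ES2 and IGF2BP3 at 19.8 ± 0.732 by 0.24 ± 0.08 to PANC1. HMGA2, a chromatin protein of fetal tissue and a let-7 target, was at 44, 44.8 and 45.8 in MV3 and at most 12.6 in every other control library (1.87 ± 0.07, adjusted p = 5.7e-11). LIN28B, which blocks let-7 maturation, was higher by 0.76 ± 0.13 than in A549. HMGA1 was high at 311 but higher in ES2 at 651, and IGF2 was near 0 in all 4 lines.

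Within the RAS-RAF-MEK-ERK core, which relays growth factor signals, 4 of 19 tested members were higher and 5 lower, and under the other scalings 3 to 5 were higher and 3 to 4 lower. Among the GTPases, HRAS and RRAS2 were higher by 0.29 and 0.49. NRAS at 29.6 lay between other lines. BRAF at 6.62 ± 0.0479 was close to PANC1 at 6.83 ± 0.895 (difference -0.03 ± 0.09, adjusted p = 0.75). The scaffold KSR1, the kinase MAP3K8 and the RAS-inactivating NF1 were lower, with differences of -1.08, -0.55 and -0.35. MEK2 (MAP2K2) was higher by 0.24, and SOS1, an exchange factor that loads RAS with GTP, by 0.21. Sequence variants of these genes were not read, so nothing is said of mutations.

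Of 18 tested ERK targets and feedback genes only ETV5 was called, higher at 22.8 ± 0.145 with a difference of 0.16 ± 0.07 to ES2 (adjusted p = 0.048). DUSP6, a phosphatase that ERK induces, was at 11.2 in MV3, below ES2 at 21.7 and above A549 at 2.07 and PANC1 at 2.85. FOSL1 showed the same order at its upper end, with 157 in ES2 and 81.7 in MV3, beside 81.8 in PANC1 (difference to ES2 -0.94 ± 0.06, adjusted p = 2.8e-08).

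In the PI3K list 4 of 13 tested members were higher and 2 lower. AKT1, the kinase at its centre, was at 27.5, 27.9 and 26.9 in MV3 and at most 19.5 in every other control library (0.54 ± 0.06, adjusted p = 6.5e-06). PIK3CD, TSC1 and PHLPP1 were higher by 0.49, 0.39 and 0.23, and the regulatory subunits PIK3R1 and PIK3R3 were lower, with differences of -0.43 and -0.68.

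Of 26 tested receptor tyrosine kinases 1 was higher and 4 were lower, ROR1 and MERTK with 0 reads in MV3, FGFR4 at 0.0344 and MET at 39.9 ± 0.147. MET had a difference of -0.22 ± 0.05 to PANC1, which was 0.0030 and no longer called without rescaling of the deposited values. DDR2, a collagen receptor, was the higher one, 24.5 in MV3 and 21.4 in ES2. Of their ligands 6 of 26 were higher and 3 lower. VEGFA was at 16.4, 15.4 and 16.8 in MV3 and at most 6.17 elsewhere (1.33 ± 0.07), and FGF1, EFNB1, BDNF and FGF5 were higher by 1.06, 0.79, 0.76 and 0.41. PDGFB was at 0.0715 in MV3 and had means of 3.93 in A549, 3.0 in ES2 and 26.5 in PANC1.

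**Figure D3:**
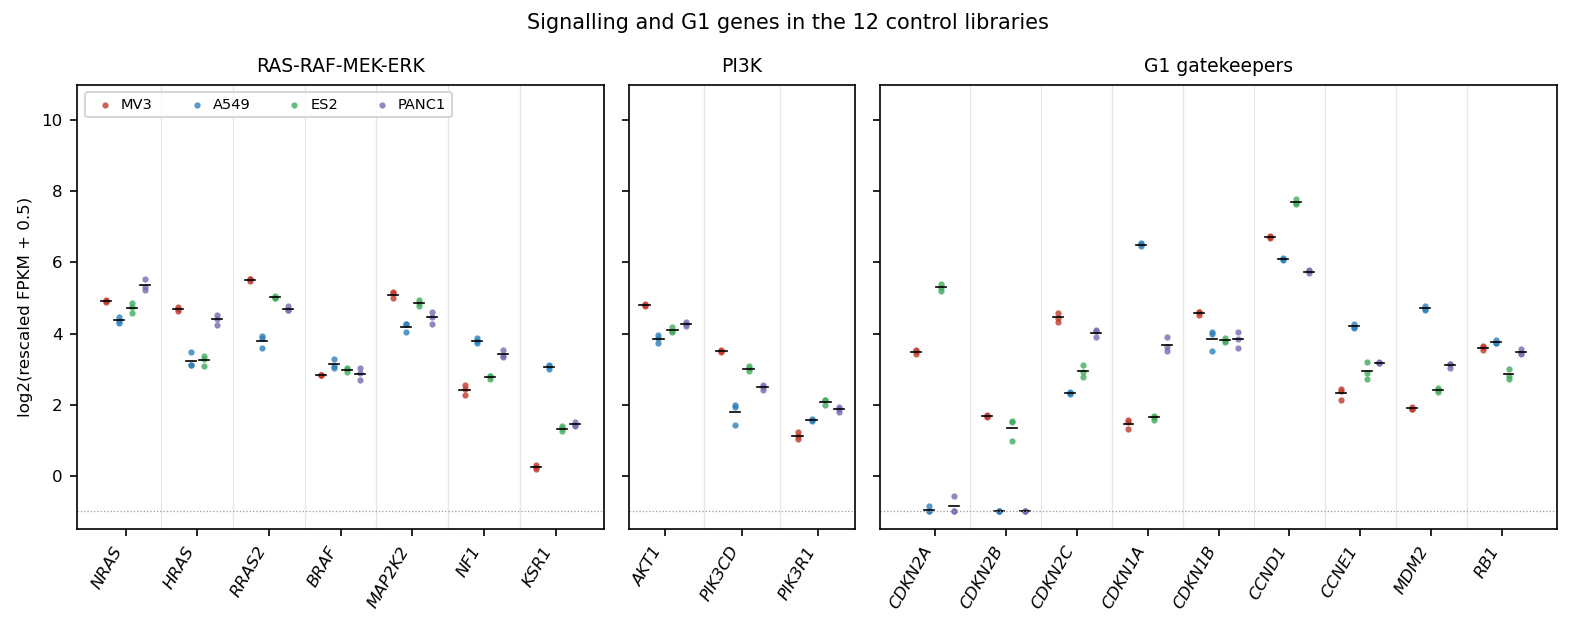
Control libraries of the 4 lines for genes of the RAS, PI3K and G1 lists, each dot 1 library and each bar the mean of 3 on the log2(rescaled FPKM + 0.5) axis, where the dotted line marks 0 FPKM. KSR1, PIK3R1 and MDM2 are lowest in MV3, AKT1 and CDKN1B are highest there, and CDKN2A is present in MV3 and ES2 and near 0 in A549 and PANC1.

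The G1 gatekeepers gave 4 higher and 2 lower members of 20 tested, and 5 to 6 higher ones under the other scalings. CDKN2A, which encodes p16 and ARF, was at 10.8, 11.1 and 10.2 in MV3, 36.5, 41.7 and 38.5 in ES2 and at most 0.179 in A549 and PANC1. MV3 thus had a CDKN2A message, at a level below that of ES2. Its neighbour CDKN2B was at 2.62, 2.69 and 2.8 in MV3, 2.36, 2.41 and 1.46 in ES2 and 0 reads in A549 and PANC1. MTAP, on the other side of CDKN2A, was at 2.63 ± 0.202 in MV3, 7.63 ± 0.242 in ES2 and at most 0.445 in A549 and PANC1. The CDK inhibitors CDKN1B, CDKN2D and CDKN2C were higher by 0.72, 0.62 and 0.44, and cyclin E1 (CCNE1) was lower, with a difference of -0.61.

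Of 24 tested p53 targets, 7 were lower (29.2%, against 14% of all genes), 1 was higher, and the median difference was -0.75. That median is taken against a mean that includes A549. Summed levels of the list were 174.7 in MV3, 180.1 in ES2, 240.5 in PANC1 and 596.5 in A549. By this sum A549 stood apart, and MV3 was close to ES2. MDM2, the p53 ubiquitin ligase, was at 3.36, 3.15 and 3.21 in MV3, 5.05, 4.79 and 4.61 in ES2, 7.75, 8.38 and 8.36 in PANC1 and 24.8, 26.7 and 25.2 in A549 (-0.51 ± 0.06). FAS, FDXR and SESN2 were lower, with differences of -1.05, -0.90 and -0.54. CDKN1A (p21) at 2.27 ± 0.252 was low in MV3 but did not differ from ES2 at 2.62 ± 0.111 by the test (adjusted p = 0.12), and was 90.1 ± 2.62 in A549. PLK3 was the higher member, by 0.72 ± 0.13. Under the other scalings 5 to 6 members were lower.

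Of the genes of G2 and mitosis, 13 of 30 tested were higher (43.3%, against 13.1% of all genes) with 2 lower and a median difference of 0.54. CDK1, the mitotic kinase, was at 75.6, 77.5 and 78.4 in MV3, 31.5, 35.3 and 29.7 in A549, 56.1, 49.5 and 52.2 in ES2 and 36.7, 34.6 and 38.6 in PANC1 (0.55 ± 0.07, adjusted p = 1.3e-05). The kinetochore motor CENPE, the kinesin KIF20A and the kinase PLK1 were higher by 0.88, 0.57 and 0.55, and TOP2A and HMMR were lower, with differences of -0.26 and -0.25. Genes of S phase did not share this, with 4 higher and 5 lower of 30 and a median of -0.07. Under the other scalings 5 to 6 of them were higher and 3 to 4 lower, and the median was -0.04 to 0.04. Higher mitotic mRNA per cell and more cells in mitosis cannot be told apart in bulk RNA.

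Targets of NRF2, the factor of the oxidative stress response, included 0 higher and 6 lower genes of 22 (27.3%, against 14% of all genes). The median was -1.36, and 4 to 6 were lower under the other scalings. That median is taken against a mean that includes A549. Summed levels of the list were 662.5 in MV3, 615 in ES2, 758.9 in PANC1 and 4130 in A549. By this sum A549 stood apart, and MV3 lay between ES2 and PANC1. UGDH, GSR and GCLC were lower beside ME1, with differences of -1.30, -0.74 and -0.48. Single members differed in which lines stood apart: AKR1C1 was 62.6 in A549 against 0.458 in MV3, 0.239 in ES2 and 0.00491 in PANC1. NQO1 was higher in A549 (396) than in MV3, and higher in MV3 (252) than in ES2 and PANC1.

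For TGF-beta 8 of 30 tested genes were lower (26.7%, against 14% of all genes) and 3 higher (10.0%, against 13.1%), with a median of 0.10, and 6 to 8 were lower under the other scalings. The ligand TGFB2 was at 0.61, 0.401 and 0.507 in MV3 and had means of 21.8 in A549, 3.29 in ES2 and 7.22 in PANC1. The ligand BMP6, the signal transducer SMAD3 and the target PMEPA1 were lower, with differences of -2.42, -1.42 and -1.01. TGFB3 and the co-receptor TGFBR3 were higher by 0.85 and 0.82.

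Of 26 tested collagens and laminins 4 were higher and 4 lower (15.4% each), close to the 13.1% and 14% of all genes. Single members are given as levels only. The type IV collagens COL4A1 and COL4A2, components of basement membranes, had 0 reads in MV3 and means of 65.9 in A549, 6.68 in ES2 and 0.351 in PANC1 and of 102 in A549, 16 in ES2 and 0.679 in PANC1. COL6A2 was higher at 83.2 ± 2.69 in MV3 and 46.6 ± 2.88 in ES2, COL6A1 by 0.48, and COL8A1 was at 7.07, 6.64 and 6.75 in MV3 and at most 0.244 elsewhere. Of 24 proteases and inhibitors 6 were higher (25.0%, against 13.1%) and 2 lower. MMP14, a membrane-bound collagenase, was at 63.6, 61.8 and 59 in MV3 and 38, 38.9 and 39 in ES2 (0.66 ± 0.07). MMP3, MMP17 and the inhibitor SERPINE2 were higher by 1.71, 1.37 and 2.44. MMP2 was higher in the control libraries by 0.77, but in the siI1 libraries it was at 19.9 in MV3 and 82.3 in ES2, with a difference of -2.02.

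In antigen presentation 3 of 13 tested genes were higher and 5 lower, and 1 to 3 were lower under the other scalings. HLA-C was at 36.9, 39.6 and 35.9 in MV3 and 27.8, 23.8 and 22.1 in ES2 (0.61 ± 0.19). HLA genes are alike and differ between people, so reads may be lost in a way that depends on the line, which was not tested. Of 29 interferon-stimulated genes 2 were higher and 3 lower, with 2 to 3 higher under the other scalings, so the level of BST2 was not shared by its list, and USP18 and IRF7 were lower, with differences of -2.02 and -1.09. Enzymes of ganglioside synthesis did not set MV3 apart: of 4 tested 0 were called, and ST8SIA1, which makes the melanoma antigen GD3, was at 0.409 in MV3 and 0.862 in ES2.

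Among other groups, 4 of 10 tested S100 genes were higher, led in level by S100A6 at 1530 ± 78.3, and 7 of 29 genes of hypoxia and glycolysis were higher and 3 lower. ENO1 and LDHA, enzymes of glycolysis, were higher by 0.86 and 0.78. MYC was lower at 17.5 ± 0.407, with means of 40.3 in A549, 55.6 in ES2 and 24.5 in PANC1. BID, a pro-apoptotic BCL2 family member, was lower, with a difference of -1.80 ± 0.07.

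**Figure D4:**
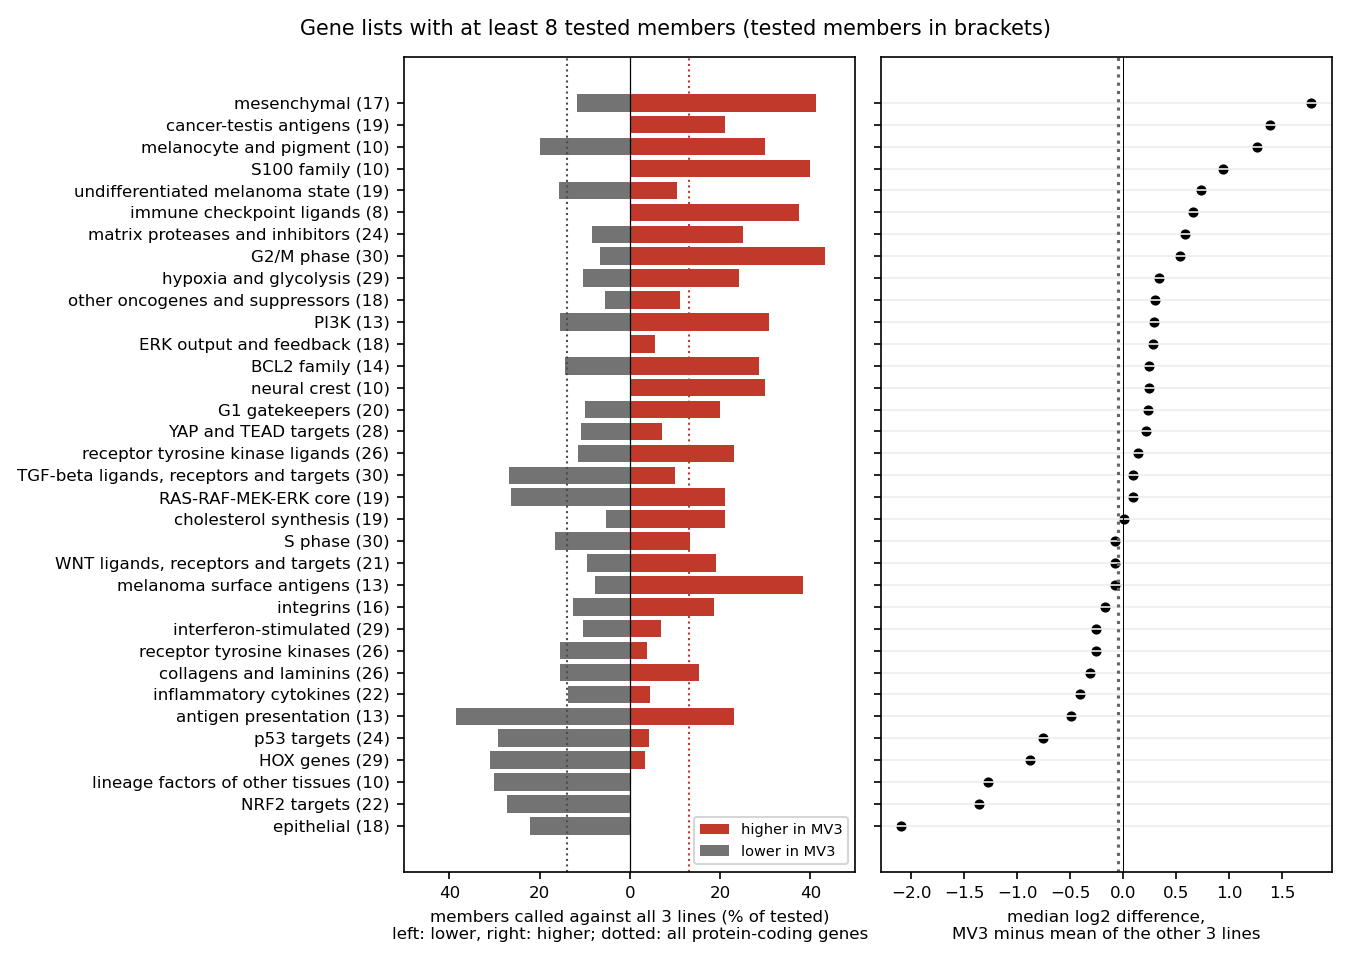
Share of tested members of each gene list called higher (right, red) or lower (left, grey) in MV3 against all 3 lines, with dotted lines at the 13.1% and 14% of all protein-coding genes, and on the right the median log2 difference between MV3 and the mean of the other lines, with a dotted line at the -0.05 of all tested genes. Mesenchymal and G2/M genes reach 41.2% and 43.3% higher, and epithelial genes have the lowest median at -2.09.

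Among 853 tested lincRNAs 80 were higher in MV3 (9.38%) and 48 lower (5.63%). AC004704.1 was at 7.54, 9.68 and 10.1 in MV3 and LINC02296 at 5.31, 3.79 and 5.47, both with 0 reads in the other lines. LINC01085 was at 7.94, 7.46 and 8.46 and at most 0.694 elsewhere. AC005332.9 was at 0.172, 0.0831 and 0.0832 in MV3 and had means of 17 in A549, 5.12 in ES2 and 7.84 in PANC1, the lincRNA with the widest gap downward.

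By chromosome the calls were uneven. On chromosome 10, 156 of 479 tested genes were lower in MV3 (32.6%, against 14% of all) and 20 were higher, and the median difference was -0.40 to A549, -0.43 to ES2 and -0.52 to PANC1. On chromosome 17, 24.3% were lower and 3.88% higher, and on chromosome X 22.2% and 8.27%. Chromosome 14 stood at the other end, with 120 of 387 genes higher (31.0%, against 13.1% of all) and 20 lower, and medians of 0.06 to A549, 0.36 to ES2 and 0.72 to PANC1. VIM is among the genes of chromosome 10 and AKT1 is on chromosome 14. IGF2BP1 and HOXB9, both lower in MV3, are on chromosome 17. Copy number was not measured, and its part in these shares was not tested.

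**Figure D5:**
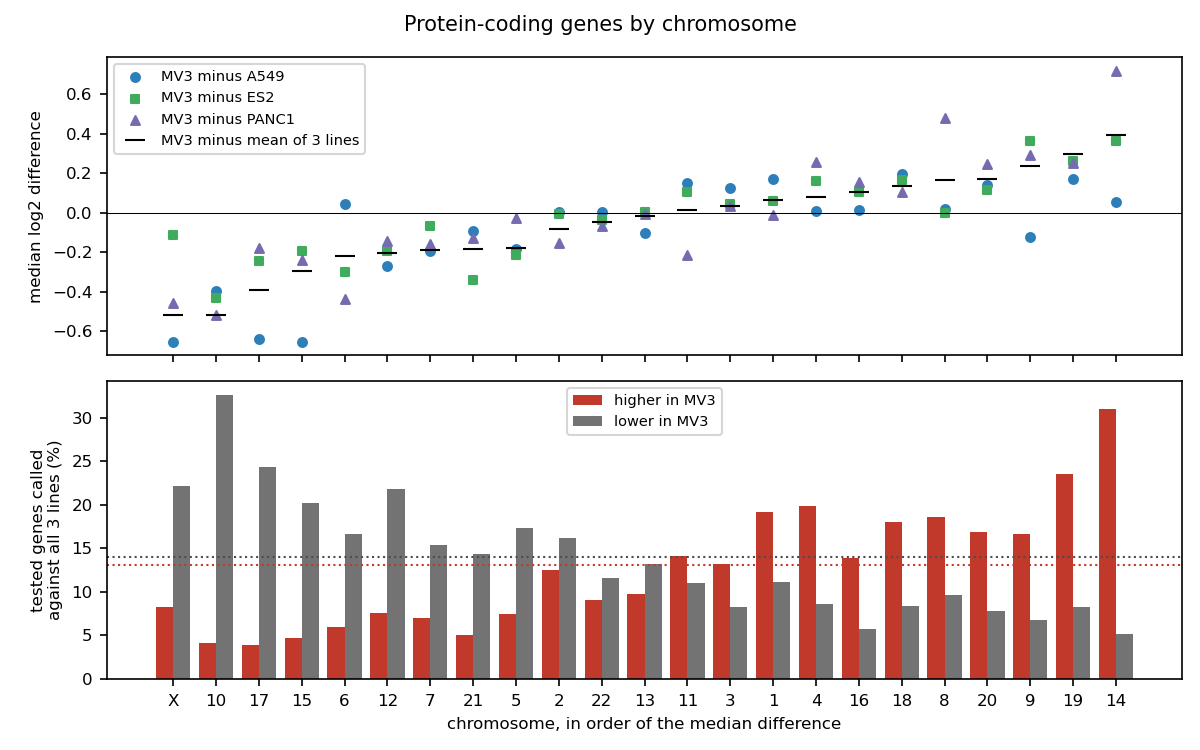
Protein-coding genes by chromosome in order of the median difference, chromosome Y left out: above, the median log2 difference between MV3 and each line and the mean of the 3, and below, the share of tested genes called higher or lower, with dotted lines at the 13.1% and 14% of all genes. Chromosome 10 has the largest share lower (32.6%) and chromosome 14 the largest share higher (31.0%).

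The line comparison was repeated in the 12 siI1 libraries, which are separate libraries of the same lines with less IGF2BP1. There 1719 protein-coding genes were higher and 1729 lower in MV3. Of the 1568 genes higher in the controls 1166 were called again (74.4%), and of the 1673 lower genes 1240 (74.1%), which is 67.8% and 71.7% of the siI1 calls. Among the control calls, 0 higher genes and 1 lower gene were called in the opposite direction. That gene was RFX5, a factor of MHC class II promoters, named after its values were seen, whose difference from the mean of the other lines was -0.35 in the controls and 0.35 in the siI1 libraries. The median difference from the mean of the other lines was -0.50 for chromosome 10, -0.48 for chromosome X and 0.43 for chromosome 14 in the siI1 libraries, and -0.52, -0.52 and 0.40 in the controls.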

How the data were processed

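Total RNA of 24 libraries was sequenced after rRNA depletion as paired-end strand-specific libraries. By the methods and the submitters' processing notes, the authors clipped adapters with Cutadapt 1.14, aligned to hg38 with HISAT2 2.1.0, sorted with SAMtools 1.5, counted reads per gene with featureCounts 1.5.3 on the Ensembl annotation of GRCh38 and used edgeR 3.30.3. The authors deposited FPKM values per gene and library, in 1 table per line, each scaled by TMM on its own, with gene lengths, and with columns of their own comparisons that were not used here. Each value times gene length was a whole multiple of 1 read in each library (relative tolerance 1e-06), which gave the reads per gene and the depth.

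The 4 tables were joined on the gene identifier. FPKM of the 12 control libraries were rescaled by the median ratio over 9353 protein-coding genes with at least 0.5 in every library (factors 0.946 to 1.12). Genes with a mean of at least 0.5 were tested with limma 3.58.1 in R 4.3.3 on log2(value + 0.5), with 1 term per line and Benjamini-Hochberg adjustment over all genes tested. Tables were made in Python 3.11.15. On simulated data, 47 of 50 genes set 1 log2 unit higher in MV3 and 50 of 50 set 2 units higher were called, among 12840 genes. The simulation gave all lines the same means apart from the changed genes. These were taken from genes with means above the filter, and the dispersion was set to 0.01. It therefore checks the calculation and does not give the power of the real comparison. Floors take 3 reads per library and cover counting error only. Replicates of a line differed by more than sampling noise (chi-square per gene 1.72 to 15.1).

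The line, the gene lists and the tests were chosen with earlier results of these data known. Genes named are the 20 protein-coding genes and 5 lincRNAs farthest from the nearest line in each direction, up to 4 called members per list and direction, the cell type markers, and members of 6 whole lists. AKR1C1, AXL, BDNF, CD44, DSG2, DUSP6, FGF5, FOSL1, HIST1H3J, MAGEA3, MMP14, NQO1, PRAME, PSMA5, PSRC1, RFX5 and TWIST2 were added after their values were seen. The M-box was likewise chosen with results known. Genes of chromosome Y, XIST and some members of the lists are not reported here, although list counts include them. Positions of promoters are from RefSeq, GRCh38.p14.

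Alternatives were 3 other scalings, 2 pseudocounts, 2 filters, limma voom on the recovered reads, a minimum difference, a replicate block, leaving out each library, the siI1 libraries and leaving out PANC1.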

Additional observations from a re-analysis of the deposited data

How the results depend on the processing

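The counts of protein-coding genes called against all 3 lines or against 1 line stayed within 1.5 times the values given under each alternative except a minimum log2 difference of 1 to each line. With that minimum, 224 protein-coding genes were higher and 349 lower in MV3, with 52 and 15 lincRNAs. Against single lines it left 1269 higher and 2099 lower genes for A549, 971 and 1275 for ES2, and 1553 and 1892 for PANC1. For lincRNAs, 234 were higher without a filter, 31 were higher and 24 lower with a mean of at least 2, 77 were lower with limma voom, and 119 were lower without PANC1. The filters change how many genes are tested. Without a filter the higher lincRNAs went from 80 to 234 and the lower ones from 48 to 45. The cause of this uneven change, with MV3 the deepest in reads, was not tested. The minimum difference adds a condition to each call and leaving out PANC1 takes one away, which favours fewer and more calls by construction. The cause of the count with limma voom was not tested. Leaving out 1 library gave 1379 to 1578 higher and 1493 to 1676 lower protein-coding genes, and 73 to 83 higher and 38 to 51 lower lincRNAs.

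Of 148 called genes named in the text, 130 kept their call under every alternative other than the siI1 libraries, wherever they could be tested. Of the 18 others, 12 lost it when 1 library was left out, with largest adjusted p-values (limma) of 0.171 for CDKN2B, 0.16 for DDR2, 0.133 for ETV5, 0.0592 for FGF5, 0.0714 for FGFR4, 0.0539 for HLA-C, 0.117 for HRAS, 0.0618 for IGF2BP3, 0.0947 for MAP2K2, 0.123 for PHLPP1, 0.181 for SOS1 and 0.112 for WT1. F2RL1, NF1, RFX5 and TOP2A lost it with common-sum scaling and HMMR with TMM scaling. MET lost it with the values as deposited (difference 0.0030, adjusted p = 0.968). In the siI1 libraries the difference to at least 1 line had the other sign, the value farthest in that direction being given, for LDHA (-0.0241), LOXL2 (-0.19), SESN2 (0.18), LIN28B (-0.57), RFX5 (0.37), MET (0.19), PIK3R1 (0.021), HRAS (-0.32), MMP2 (-2.02), TOP2A (0.37), PIK3R3 (0.45) and CDKN2B (-0.36), and for PRAME the difference from the mean of the other lines did (0.090). These libraries have less IGF2BP1, and whether that moves these genes was not tested here.

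The replicate numbers in the labels did not pair the libraries: deviations from the group means of libraries with the same number correlated between -0.16 and 0.25. With the number as a replicate block, 1535 protein-coding genes were higher and 1634 lower in MV3, with 81 and 47 lincRNAs.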
